A study of Mus musculus with 15 samples.

Results

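The genes described here are 44 regulators of chromatin whose human counterparts are known as genes of neurodevelopmental disorders. They were taken by symbol from the 53337 genes to which the transcript values were summed, and all 44 passed the filter on low values in every comparison. The tissue was the dorsal forebrain of C57BL/6J mouse fetuses at E18, taken from dams infused with arginine vasopressin (AVP) or with saline from before breeding. AVP infusion of the dam is used as a mouse model of preeclampsia. Poly(A) RNA was sequenced as stranded libraries, 4 of AVP and 4 of saline males and 3 of AVP and 4 of saline females. The labels speak of 16 samples from 8 litters, and the study left out 1 AVP female for high variance. By the study's account the libraries of a group come from separate litters, but the labels do not link males to females. Males and females of a treatment may thus share litters, which the fits of all 15 libraries did not model. The deposited values are TPM, transcript abundances scaled to the length of each transcript and to the same sum in each library, so the reads behind a value are unknown.

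Chromatin regulators set how DNA is packed and which marks histones and DNA carry. CHD proteins and the BAF complex use ATP to move nucleosomes, histone methyltransferases and acetyltransferases write marks that demethylases and deacetylases remove, and DNA methyltransferases and TET enzymes write and oxidise methylated cytosine. In the developing cortex they are known to time the passage from radial glia to neurons, and loss of a single copy of many of them is enough to cause intellectual disability or autism in people. The 44 members fall by role into 5 CHD remodellers, 8 subunits of BAF and of the related remodeller NURF, 7 members of the H3K4 methyltransferase family, 7 other histone methyltransferases, 4 demethylases and members of deacetylase complexes, 4 acetyltransferases, 3 scaffolds of the PR-DUB deubiquitinase and its partner Mbd5, 3 enzymes of DNA methylation and 3 zinc finger and ankyrin regulators.

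Most promoter windows found for these genes were rich in CG dinucleotides, the substrate of the Dnmt members. RefSeq (GRCm38.p6) promoter windows, from 250 bases before to 50 bases after a start site, were matched by symbol for 32 of the 44 members, with 42 windows in all. The member windows held a median of 30.5 CG, from 1 to 56, against a median of 7 over all 32851 windows, and 29 of the 42 lay above the upper quartile of 20 CG, as did 24.8% of all windows. The letters GGGCGG, the GC box, stood on either strand in 35 of the 42 member windows and in 35.7% of all windows. CCAAT on either strand stood in 10 member windows and 37.4% of all windows, and TATAAA in 1 member window and 13.6% of all windows. Windows of the same gene can overlap, and a match describes the letters only. The set of all windows was not limited to genes expressed here. Some member windows lay at starts with little of the gene's TPM, such as 0% for Arid1b and 0.063% for Ep300. The windows below are those of Setd1a, Smarcc2, Smarca2 and Dnmt3a, with each CG in capitals and the rest in lower case, 5′ to 3′. No window was found for Setd1b, Kdm6b and Kmt2b. Setd1a, at chr7:127777139-127777438 on the plus strand, is the member of the H3K4 family with a window among those lowest in AVP males, and its window held 35 CG. Smarcc2, at chr10:128458986-128459285 on the plus strand, is the BAF subunit that was lowest there, and its window held 48 CG, as many as 1.22% of windows reach. Smarca2, at chr19:26604910-26605209 on the plus strand, was the 1 member that was higher at an unadjusted p under 0.05 there, and its window held 29 CG. Dnmt3a is shown at both its main starts, at chr12:3806730-3807029 with 46 CG and at chr12:3891494-3891793 with 18 CG, both on the plus strand.
Setd1a: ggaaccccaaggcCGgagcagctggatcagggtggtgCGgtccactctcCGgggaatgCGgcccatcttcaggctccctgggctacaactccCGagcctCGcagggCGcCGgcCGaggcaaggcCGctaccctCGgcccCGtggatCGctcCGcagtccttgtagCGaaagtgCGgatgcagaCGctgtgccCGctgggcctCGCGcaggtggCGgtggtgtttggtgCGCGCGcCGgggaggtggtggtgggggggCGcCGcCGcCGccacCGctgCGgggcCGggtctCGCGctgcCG
Smarcc2: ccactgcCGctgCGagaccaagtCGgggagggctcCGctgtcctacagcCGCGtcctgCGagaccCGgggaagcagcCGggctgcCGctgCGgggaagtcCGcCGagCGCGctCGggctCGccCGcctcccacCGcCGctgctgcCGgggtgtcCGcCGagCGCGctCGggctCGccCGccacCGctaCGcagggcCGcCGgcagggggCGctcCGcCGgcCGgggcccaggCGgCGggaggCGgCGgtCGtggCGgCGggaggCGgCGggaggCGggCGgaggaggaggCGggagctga
Smarca2: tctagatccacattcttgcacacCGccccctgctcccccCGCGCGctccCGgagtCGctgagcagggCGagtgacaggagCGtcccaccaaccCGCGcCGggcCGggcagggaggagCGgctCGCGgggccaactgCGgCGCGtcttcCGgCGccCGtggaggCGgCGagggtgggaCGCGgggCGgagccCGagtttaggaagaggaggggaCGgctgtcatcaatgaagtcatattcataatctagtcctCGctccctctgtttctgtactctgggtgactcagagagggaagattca
Dnmt3a upstream start: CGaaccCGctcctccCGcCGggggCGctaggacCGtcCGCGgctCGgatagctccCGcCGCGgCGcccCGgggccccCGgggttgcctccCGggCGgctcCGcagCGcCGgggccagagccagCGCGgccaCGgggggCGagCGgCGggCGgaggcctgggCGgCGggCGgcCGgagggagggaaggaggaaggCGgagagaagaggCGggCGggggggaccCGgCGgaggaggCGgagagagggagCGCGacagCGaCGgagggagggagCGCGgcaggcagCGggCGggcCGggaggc
Dnmt3a downstream start: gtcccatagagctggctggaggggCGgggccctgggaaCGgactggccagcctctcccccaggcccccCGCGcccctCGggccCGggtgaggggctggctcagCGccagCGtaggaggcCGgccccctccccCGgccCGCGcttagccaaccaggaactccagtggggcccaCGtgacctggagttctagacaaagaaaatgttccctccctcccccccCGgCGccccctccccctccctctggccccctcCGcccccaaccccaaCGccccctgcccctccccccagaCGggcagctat
Transcripts that began within 100 bases of the printed start held 82.3% of the TPM of Setd1a and 97.6% of that of Smarcc2. For Smarca2 they held 5.38%, since most of its TPM lay on shorter transcripts that start further inside the gene. For Dnmt3a the upstream start held 68.1% and the downstream start 23.0%.

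The 44 members were long transcripts of moderate abundance. Their TPM-weighted transcript length had a median of 5637 nt against 2369 nt over all genes tested, while the median GC content was 50.1% in both. In the 8 saline libraries their level had a median of 33.7 TPM, against 17.9 TPM over all genes tested. Chd3, an ATPase of the NuRD complex, was highest at 296.5 ± 25.1 TPM (SD, n = 8). Smarca2 and Smarcc2, an ATPase and a core subunit of BAF, followed at 236.7 ± 13.9 and 188.9 ± 18.2 TPM. Neighbours in this order met at single libraries, where the lowest Chd3 library lay below the highest Smarca2 library and the highest Smarcc2 library above the lowest Smarca2 library. At the other end stood the PR-DUB scaffold Asxl3 (8.61 ± 1.10 TPM), the acetyltransferase Crebbp (10.5 ± 1.18 TPM) and the class IIa deacetylase Hdac4 (11.2 ± 0.90 TPM), where neighbours in the order did not differ beyond their spread. Across the 15 libraries, the highest library of a member was a median of 1.75 times its lowest, and at most 2.54 times.

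Several libraries stood apart over the members as a whole. With each gene centred on its mean over 15 libraries, the members' median log2(TPM + 0.5) was -0.28 in AVP male 1 and -0.30 in AVP female 11, against 0.32 in AVP female 10. In AVP male 1 and AVP female 11, 42 of the 44 members lay below their own mean, and in AVP female 10, 41 lay above it. The same libraries stood apart over all genes tested, at -0.15, -0.17 and 0.17. The library labelled saline male 12 had 42 of the 44 members above their own mean. Its members' median of 0.14 was the highest of the saline libraries, and over all genes tested it stood at 0.12. Xist, the transcript of the silenced X chromosome, stood at 265.7 TPM in the library labelled saline male 12, with a sum of 0.489 TPM over 4 Y-linked genes, against at most 1.13 TPM of Xist and 102 to 155 TPM of the Y-linked genes in the other males. The female libraries had 173.7 to 294.5 TPM of Xist and 0.250 to 1.01 TPM of the Y-linked genes, so that saline male 12 lay within their range. It was analysed under its label, and some results in males are also given without it. Markers of cortical plate neurons, 7 of 7, and of radial glia, 8 of 8, were at 1 TPM or more in every library, with summed levels of 971 to 1326 TPM for the neuron list. Choroid plexus, whose markers are not those of dorsal cortex, ranged from 7.29 to 2288 TPM in sum. Of its 7 markers 2 were at 1 TPM or more in every library and none was at 0 in all of them.

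**Figure D1:**
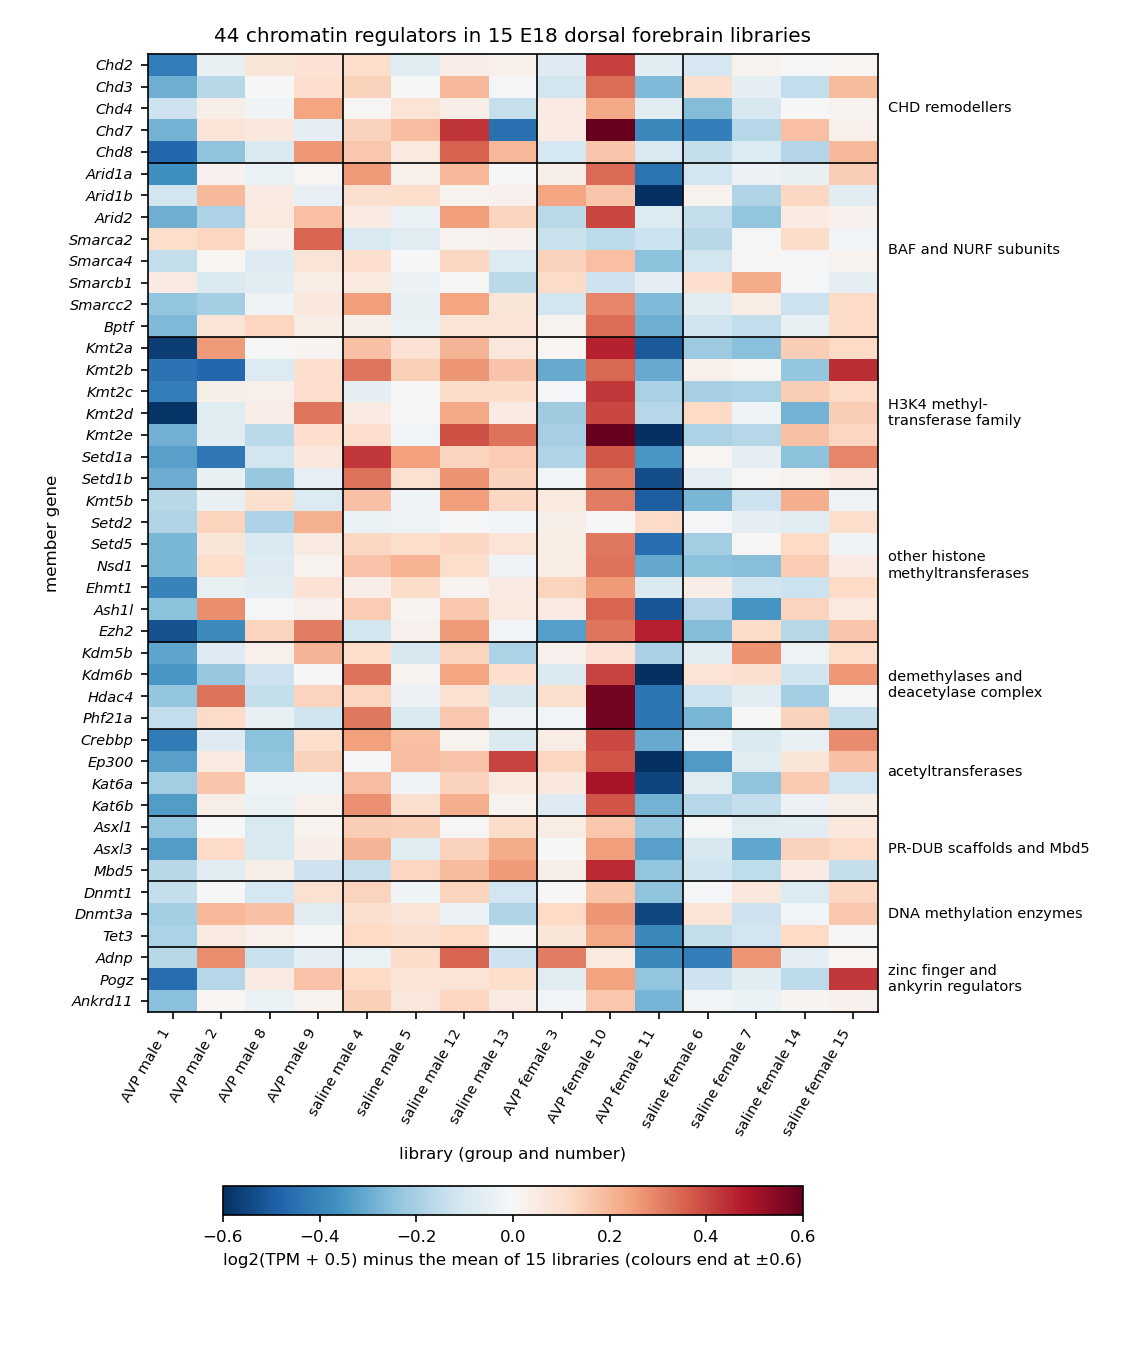
Heat map of log2(TPM + 0.5) of the 44 members (rows, grouped by role) in 15 libraries (columns, grouped by treatment and sex), each gene minus its mean over the libraries. AVP male 1 and AVP female 11 are lower over nearly all rows and AVP female 10 is higher, with medians of -0.28, -0.30 and 0.32.

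The first question was whether the members differed between AVP and saline males. No member passed the threshold, an adjusted p of 0.05 by limma with Benjamini-Hochberg adjustment over 15271 genes, of which 0.00655% passed. The smallest adjusted p of a member was 0.304. On the log2(TPM + 0.5) scale, on which differences of low genes are understated, 39 members were lower and 5 higher in AVP males, with a median difference of -0.16. All genes tested had a median of -0.10, and 1176 other genes within the members' range of length, GC content and level had a median of -0.14. The share lower was 88.6% of members, 90.7% of those like genes and 73.6% of all genes, so the members stood where genes of their length, GC content and level stood. An unadjusted p under 0.05 was reached by 7 members that were lower and by 1 that was higher, against 12.4% of all genes lower and 1.11% higher. The share lower was 15.9% of members and 24.0% of the like genes. AVP males and saline males did not overlap for 6 members, all lower with AVP, where 6.54% of all genes were lower and 0.733% higher without overlap. With fewer libraries the count of members lower at an unadjusted p under 0.05 changed, to 4 without AVP male 1, 4 without saline male 12 and 16 without AVP male 9. The share of all genes lower at that p moved with it, to 6.91%, 7.10% and 18.5%, and that of the like genes to 13.8%, 13.7% and 28.8%. Without AVP male 1 the median of the members was -0.071 and equal to that of all genes.

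The balance of signs changed with the scaling, and under each the members stayed more often lower than higher. Median-of-ratios scaling moved the median of all genes in males from -0.10 to 0.0033. The members then stood at 28 lower and 16 higher, with quantile normalization at 27 lower and 17 higher, and with each library's trend on transcript length and GC content removed at 24 lower and 20 higher. In the last of these, which also centres each library, the members' median was -0.013, against 0.020 for all genes. The members' median minus that of all genes was -0.056 as deposited and -0.052 with median-of-ratios scaling. It was -0.056 with quantile normalization and -0.033 with the length and GC trend removed. The members that were lower as deposited and higher there were Chd2, Chd3, Chd7, Smarca4, Arid1b, Bptf, Kmt2c, Kmt2d, Ash1l, Kdm5b, Hdac4, Kat6a, Dnmt1, Tet3 and Adnp, from 0.0027 for Kat6a to 0.17 for Hdac4. Median-of-ratios scaling alone turned the sign of the same members apart from Chd3, Chd7, Kmt2d and Kat6a. In bulk tissue, fewer cells of a type and less RNA per cell cannot be told apart.

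The H3K4 methyltransferase family, whose members other than Kmt2e are catalytic subunits of COMPASS complexes that mark promoters and enhancers, was the group lowest in AVP males. All 7 were lower than in saline males, with a median difference of -0.30. Of them 4 had an unadjusted p under 0.05, where 12.4% of all genes and 24.0% of the like genes were lower at that p. Setd1a, Setd1b and Kmt2b lie above the like genes' upper GC limit of 56.8%, so that share does not cover their GC content. With the length and GC trend removed 5 were lower and 2 higher, Kmt2c at 0.014 and Kmt2d at 0.028, with a median of -0.18 and 1 of the 7 at an unadjusted p under 0.05. Setd1a, a writer of H3K4 trimethylation at promoters, measured 14.2, 13.2, 16.5 and 18.7 TPM in AVP males and 24.3, 21.3, 19.7 and 19.97 TPM in saline males. The groups did not overlap, and the difference was -0.44 (SE 0.12, adjusted p = 0.304, limma), or 26.3% less on the scale of the fit. In females Setd1a measured 15.7, 23.3 and 13.9 TPM with AVP and 18.1, 17.2, 15.03 and 22.1 TPM with saline. There the AVP libraries spanned the saline libraries on both sides.

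Setd1b, the paralog of Setd1a, measured 9.60, 11.5, 10.1 and 11.5 TPM in AVP males and 15.1, 12.7, 14.5 and 13.2 TPM in saline males. It was 22.2% lower without overlap (log2 difference -0.36, SE 0.10, adjusted p = 0.304, limma). Kmt2b, a family member that acts mostly at promoters, measured 23.7, 23.2, 30.6 and 34.7 TPM in AVP males and 40.6, 35.8, 39.0 and 36.5 TPM in saline males. Its AVP libraries were also all below the saline libraries, by -0.45 (SE 0.13, adjusted p = 0.304, limma). Kmt2e, which lacks clear methyltransferase activity, measured 44.9, 52.6, 49.0 and 58.9 TPM in AVP males and 58.9, 54.3, 71.7 and 68.9 TPM in saline males. Here the groups overlapped, and the difference was -0.30 (SE 0.11, adjusted p = 0.326, limma). Without the library labelled saline male 12 the unadjusted p of Kmt2e was 0.078 (limma). The other 3, Kmt2a, Kmt2c and Kmt2d, differed by -0.20, -0.10 and -0.16 with overlapping groups. Exact two-sided permutation tests gave p = 0.0286 for Setd1a, Setd1b and Kmt2b, the smallest that 4 against 4 libraries allow, and p = 0.0571 for Kmt2e. These p are not adjusted. For groups that do not overlap the p is fixed, so it only restates the separation. In males 6.54% of all genes were lower without overlap.

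Kdm6b, a demethylase of H3K27me3, had the largest difference in males of the members outside the H3K4 family. It measured 29.4, 32.0, 34.4 and 37.6 TPM in AVP males and 47.3, 38.0, 44.4 and 40.3 TPM in saline males, again without overlap. The difference was -0.35 (SE 0.10, adjusted p = 0.304, limma; exact permutation p = 0.0286). Kdm5b, a demethylase of H3K4, Phf21a, a reader in the LSD1 complex, and Hdac4 differed by -0.029, -0.14 and -0.0016. The sign of Hdac4 turned with median-of-ratios scaling, to 0.11.

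**Figure D2:**
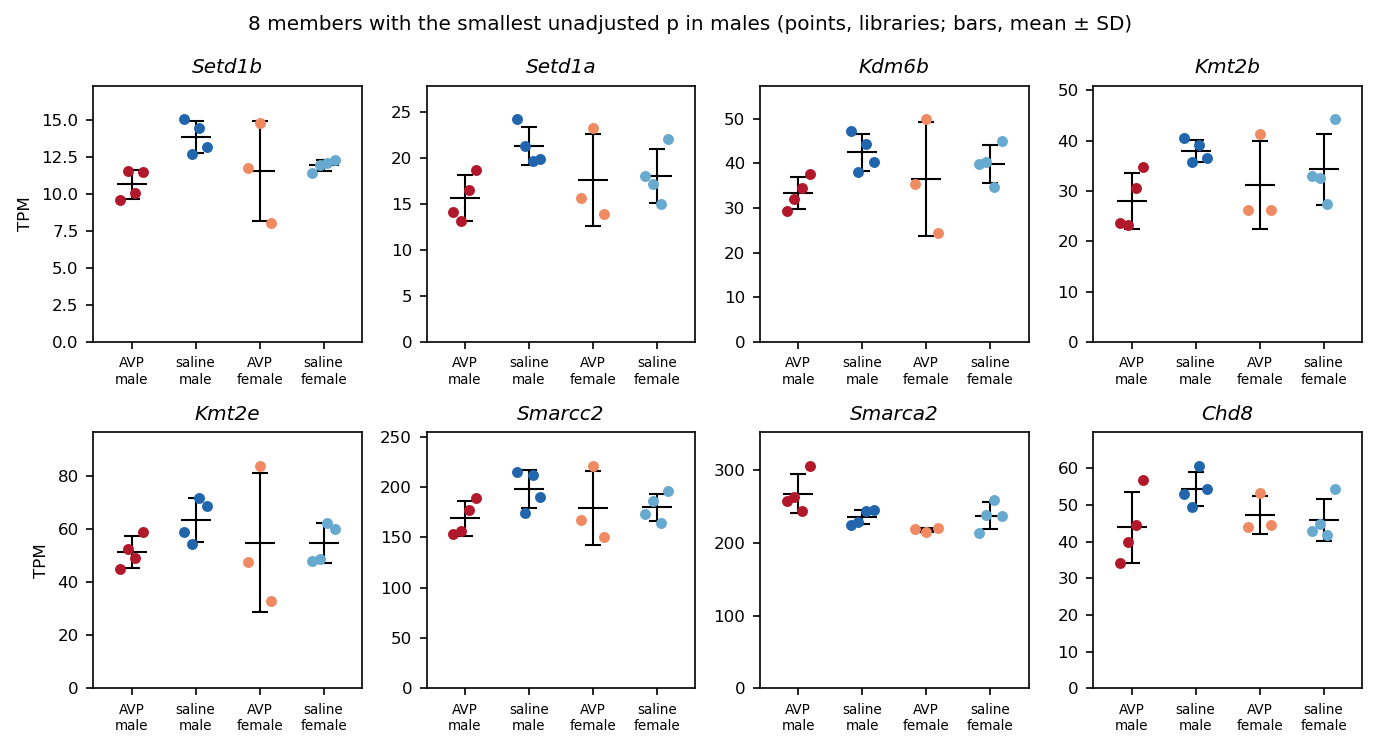
TPM in each library (points) with mean and SD (bars) for the 8 members with the smallest unadjusted p in males, in the 4 groups, with axes that start at 0. Setd1b, Setd1a, Kdm6b and Kmt2b are lower in every AVP male than in every saline male, Smarca2 is higher with overlap, and the AVP females of Setd1b, Setd1a, Kdm6b and Kmt2e lie on both sides of the saline females.

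Kdm6b, Setd1b, Setd1a and Kmt2b were among the most GC-rich members, with 58.8%, 58.5%, 57.5% and 57.2% in that order. All 4 lie above the like genes' upper limit of 56.8%. In males the median of all genes went from -0.090 for genes under 45% GC to -0.13 for genes of at least 55% GC. The 9 members in the latter bin had a median of -0.22, and 8 of them were lower. With the trend on length and GC content removed, the differences were -0.26 for Setd1a, -0.19 for Setd1b, -0.17 for Kdm6b and -0.26 for Kmt2b. That removal also centres each library. With median-of-ratios scaling alone the differences were -0.33, -0.25, -0.23 and -0.34 in the same order. With the trend removed all 4 stayed lower at a smaller size, and of them Setd1b kept an unadjusted p under 0.05. Over all members that fit gave 1 lower and 4 higher at an unadjusted p under 0.05, against 4.1% of all genes lower and 6.66% higher. Without the library labelled saline male 12 the 4 differences as deposited were -0.47, -0.34, -0.32 and -0.44, and without AVP male 1 they were -0.40, -0.32, -0.29 and -0.38, in the order Setd1a, Setd1b, Kdm6b and Kmt2b. The share of TPM on retained-intron transcripts was 3.52% to 5.94% in AVP males and 5.53% to 6.55% in saline males, and that on transcripts of at least 5 kb was 4.63% to 5.30% and 5.30% to 5.86%. The part of these measures in the result was not tested.

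**Figure D3:**
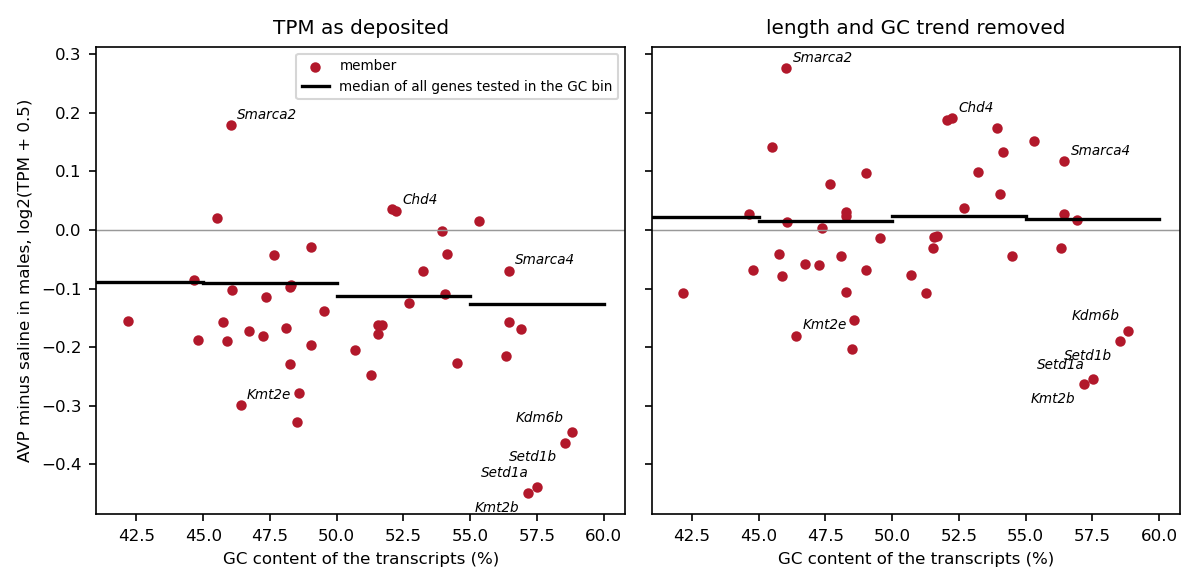
AVP minus saline difference in males, on the log2(TPM + 0.5) scale, of each member (points) against the GC content of its transcripts, for TPM as deposited and after each library's trend on length and GC content was removed. Black lines are the medians of all genes tested in 4 GC bins. The members above 57% GC lie lowest. All points shift up after the removal, which also centres each library, to a members' median of -0.013.

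BAF and NURF subunits differed in sign. Of the 8, 6 were lower and 2 higher in AVP males, with a median of -0.056. Smarcc2 measured 153.0, 156.8, 177.0 and 189.4 TPM in AVP males and 214.6, 174.7, 212.5 and 189.7 TPM in saline males. The groups overlapped, and the difference was -0.23 (SE 0.094, adjusted p = 0.345, limma; exact permutation p = 0.114). It was -0.11 with median-of-ratios scaling and -0.045 when the trend on length and GC content was removed. Smarca2, the ATPase that alternates with Smarca4 in BAF, measured 258.3, 262.8, 244.3 and 306.2 TPM in AVP males and 225.2, 229.4, 243.9 and 244.8 TPM in saline males. The lowest AVP male lay between the 2 highest saline males, and the difference was 0.18 (SE 0.076, adjusted p = 0.356, limma; exact permutation p = 0.0571), or 13.3% more. Leaving out any male library other than AVP male 8 put its unadjusted p above 0.05. Summed interneuron markers were 333 to 498 TPM in AVP males and 256 to 340 TPM in saline males. The higher sum lay on Sst, which did not overlap, at 145.8 to 328.7 TPM against 82.7 to 142.0 TPM. Gad1, Gad2, Dlx1, Dlx2, Dlx5 and Lhx6 overlapped between the groups. Of these, Dlx1 was at 40.3 to 64.4 TPM in AVP males and 49.4 to 65.0 TPM in saline males. Dlx5 was at 9.845 to 22.5 and 12.85 to 24.95 TPM, and Lhx6 at 41.2 to 50.85 and 46.7 to 54.2 TPM, so these ran lower with AVP. Gad1, Gad2 and Dlx2 did not. The part of the interneuron markers in the result was not tested. The study lists Smarca2 among its genes for males, and that list was chosen on these libraries, so this direction is not independent evidence. In AVP females Smarca2 measured 218.8, 215.5 and 220.0 TPM, and in saline females 214.0, 238.9, 259.6 and 237.6 TPM. The AVP females lay at the lower end of the saline females, with a difference of -0.12 (SE 0.086, adjusted p = 0.999, limma). Smarca4, the alternative ATPase, differed by -0.070 in males and 0.045 in females, and Smarcb1, a core subunit, by 0.016 and -0.087. The DNA-binding ARID subunits Arid1a, Arid1b and Arid2 differed by -0.22, -0.040 and -0.16 in males, and the NURF subunit Bptf by -0.043. After removal of the length and GC trend, Smarca2 stood at 0.28, Smarcb1 at 0.15 and Smarca4 at 0.12, each with an unadjusted p under 0.05 (limma).

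Much of Smarca2 was measured on short transcripts. The 3 long protein-coding transcripts, of 5703 to 5921 nt, held 14.6% of its TPM, 24 short protein-coding transcripts of 421 to 2333 nt held 54.6%, and 19 transcripts of other classes held 30.8%. The long transcripts summed to 36.3 ± 3.05 TPM in AVP males and 38.5 ± 5.81 TPM in saline males (SD, n = 4 each; exact permutation p = 0.6). The short coding transcripts summed to 144.6 ± 15.1 and 124.4 ± 8.08 TPM (n = 4 each; exact permutation p = 0.0571), and the other classes to 87.1 ± 14.5 and 72.9 ± 6.24 TPM (n = 4 each; exact permutation p = 0.171). The higher sum in AVP males thus lay on the short coding transcripts and the other classes. When the gene was taken from its long coding transcripts alone, the difference was -0.074. In females the long transcripts summed to 33.0 ± 8.79 TPM with AVP (n = 3) and 32.9 ± 4.96 TPM with saline (n = 4; exact permutation p = 0.971). Among single transcripts, Smarca2-206, an annotated noncoding transcript at chr19:26681010-26751934, measured 27.9, 28.2, 24.7 and 31.8 TPM in AVP males and 18.3, 19.9, 20.2 and 16.8 TPM in saline males. These did not overlap, with a difference of 0.57 (SE 0.10, adjusted p = 0.309 over 39364 transcripts, limma). In females Smarca2-206 measured 19.2, 19.97 and 22.2 TPM with AVP and 22.0, 22.1, 25.8 and 22.3 TPM with saline. Smarca2-203, a protein-coding transcript of 1962 nt, was the transcript with the smallest p in females. It measured 19.8, 15.7 and 21.2 TPM with AVP and 12.5, 10.1, 11.5 and 12.1 TPM with saline (difference 0.68, SE 0.16, adjusted p = 1, limma). In males Smarca2-203 went the other way, at 0.945, 5.24, 7.04 and 8.89 TPM with AVP and 6.85, 13.2, 3.73 and 8.36 TPM with saline, with overlap. The leading transcript of the gene, of 1841 nt, held 28.7% of the gene and overlapped between groups in both sexes. Reads shared between these overlapping transcripts were divided by an estimate, so a value of a single transcript is less certain than that of the gene.

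**Figure D4:**
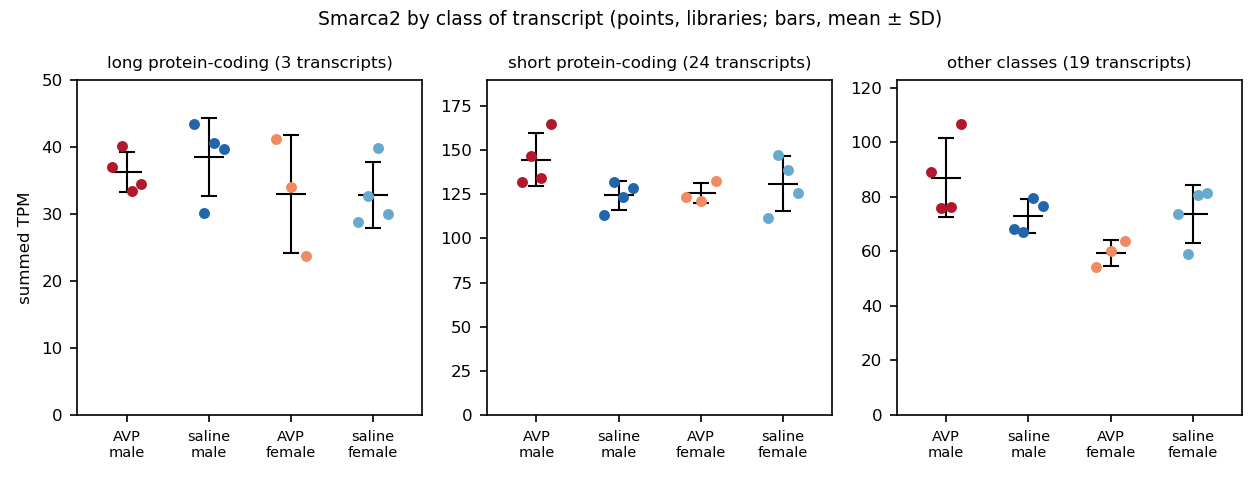
Summed TPM of Smarca2 transcripts by class in each library (points), with mean and SD (bars) in the 4 groups and axes that start at 0. The long protein-coding transcripts lie at the same level in AVP and saline males, while the short protein-coding ones are at 144.6 against 124.4 TPM.

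Of the CHD remodellers, 4 of 5 were lower in AVP males, with a median of -0.13. Chd8, whose loss of function is a known cause of autism, measured 34.0, 40.0, 44.5 and 56.9 TPM in AVP males and 53.1, 49.4, 60.6 and 54.4 TPM in saline males. The highest AVP male lay above 3 of the saline males, and the difference was -0.33 (SE 0.15, adjusted p = 0.37, limma; exact permutation p = 0.114). Without AVP male 1, the lowest library, it was -0.22. Chd4, the main ATPase of NuRD in cycling progenitors, measured 82.8, 92.6, 89.0 and 106.7 TPM in AVP males and 90.9, 95.7, 93.0 and 82.2 TPM in saline males. It differed by 0.033 in males (SE 0.088, adjusted p = 0.89, limma), and by 0.19 with the length and GC trend removed. Chd3 differed by -0.17 (SE 0.093, adjusted p = 0.439, limma), Chd7 by -0.13 and Chd2 by -0.098. The differences of Chd3, Chd2 and Chd7 took the other sign with the length and GC trend removed, at 0.018, 0.025 and 0.038.

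The other groups held no member with an unadjusted p under 0.05 by limma in males. All 4 acetyltransferases were lower, with a median of -0.24. They were Ep300 at -0.28, Crebbp at -0.25, Kat6b at -0.23 and Kat6a at -0.11. Of the other 7 histone methyltransferases 6 were lower, with a median of -0.16. Ezh2, the catalytic subunit of Polycomb complex PRC2, varied widely within groups, at 106.1, 117.0, 167.6 and 189.4 TPM in AVP males and 141.5, 155.7, 182.2 and 151.1 TPM in saline males. The AVP males spanned the saline males, and the difference was -0.16 (SE 0.18). Setd5, a regulator of the SET family, was lower in each AVP male than in each saline male, at 42.7 to 54.6 TPM against 54.8 to 56.5 TPM. Its difference was -0.17 (SE 0.085, exact permutation p = 0.0286). Setd2, the H3K36 trimethylase, differed by 0.021, and Nsd1, Ehmt1, Kmt5b and Ash1l by -0.17, -0.16, -0.18 and -0.085. Asxl1, Asxl3 and Mbd5 all lay near -0.18 to -0.19. Of the zinc finger and ankyrin regulators, Ankrd11 did not overlap between groups either, at 45.5 to 55.1 TPM with AVP and 56.4 to 59.9 TPM with saline. Its difference was -0.16 (SE 0.076, exact permutation p = 0.0286). Pogz and Adnp differed by -0.20 and -0.095.

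The DNA methylation enzymes had small differences. Dnmt1, which copies methylation at replication, differed by -0.070 in males and Tet3, which oxidises it, by -0.11. Dnmt3a, which methylates new sites, measured 18.4, 24.5, 24.1 and 20.3 TPM in AVP males and 22.8, 22.5, 20.8 and 18.7 TPM in saline males, a difference of 0.035 (SE 0.11, adjusted p = 0.911, limma). From the upstream of the starts printed above, its transcripts summed to 15.1 ± 2.81 TPM in AVP males and 15.2 ± 1.65 TPM in saline males (SD, n = 4 each). From the downstream start they summed to 5.08 ± 1.03 and 3.92 ± 0.72 TPM. In females the upstream start gave 13.3 ± 4.55 TPM with AVP (n = 3) and 14.7 ± 1.66 TPM with saline (n = 4), and the downstream start 4.79 ± 0.26 and 5.92 ± 1.22 TPM. The upstream start was ahead in all 4 groups.

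In females no member passed the threshold among 15132 genes, of which 0% passed, and no member had an unadjusted p under 0.05 (limma), where 2.34% of all genes were higher and 2.17% lower. No member separated the groups, while 2.77% of all genes were lower and 2.78% higher without overlap. Of the 44 members 26 were higher and 18 lower with AVP. Their median was 0.014 against -0.051 for all genes and -0.065 for 1209 genes of like length, GC content and level. Lower with AVP were 40.9% of members, 72.2% of those like genes and 63.1% of all genes. The 8 members with the smallest p in females included Chd4, at 93.6, 105.9 and 86.5 TPM with AVP and 75.4, 84.5, 90.3 and 91.9 TPM with saline, a difference of 0.16 (SE 0.11). The others beside Smarca2 were Ehmt1 (0.12), Mbd5 (0.17), Ezh2 (0.19), Smarcb1 (-0.087), Kdm5b (-0.097) and Kdm6b (-0.18), with an adjusted p of 0.999 for all 8 (limma). By role, 4 of the 5 CHD remodellers and 6 of the 7 other histone methyltransferases were higher, with medians of 0.11 and 0.057, and the H3K4 family had 3 higher and 4 lower with a median of -0.055.

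The 3 AVP females were far apart, and the sign of the whole depended on AVP female 10 and AVP female 11. Within AVP females the median SD of a member was 0.34 on the log2 scale, against 0.18, 0.10 and 0.14 in AVP males, saline males and saline females. Kmt2e, for example, measured 47.7, 83.9 and 33.1 TPM in AVP females, so that the highest was above and the lowest below all 4 saline females at 48.1 to 62.2 TPM. Without AVP female 10 the members' median was -0.14 with 39 lower, and without AVP female 11 it was 0.19 with 40 higher. Without saline female 6 or saline female 7 it was -0.0080 or -0.0073. The count at an unadjusted p under 0.05 became 2 lower without AVP female 10 and 1 higher without AVP female 11 or AVP female 3. Of all genes 8.58% were lower in the first of these, and 2.40% and 2.51% were higher in the others. Summed choroid plexus markers were 2288, 26.9 and 1393 TPM in AVP females 3, 10 and 11. Meningeal fibroblast markers were 182 to 264 TPM in AVP females and 113 to 125 TPM in saline females, and endothelial ones 146 to 150 TPM and 80.7 to 131 TPM. The part of these in the result was not tested.

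**Figure D5:**
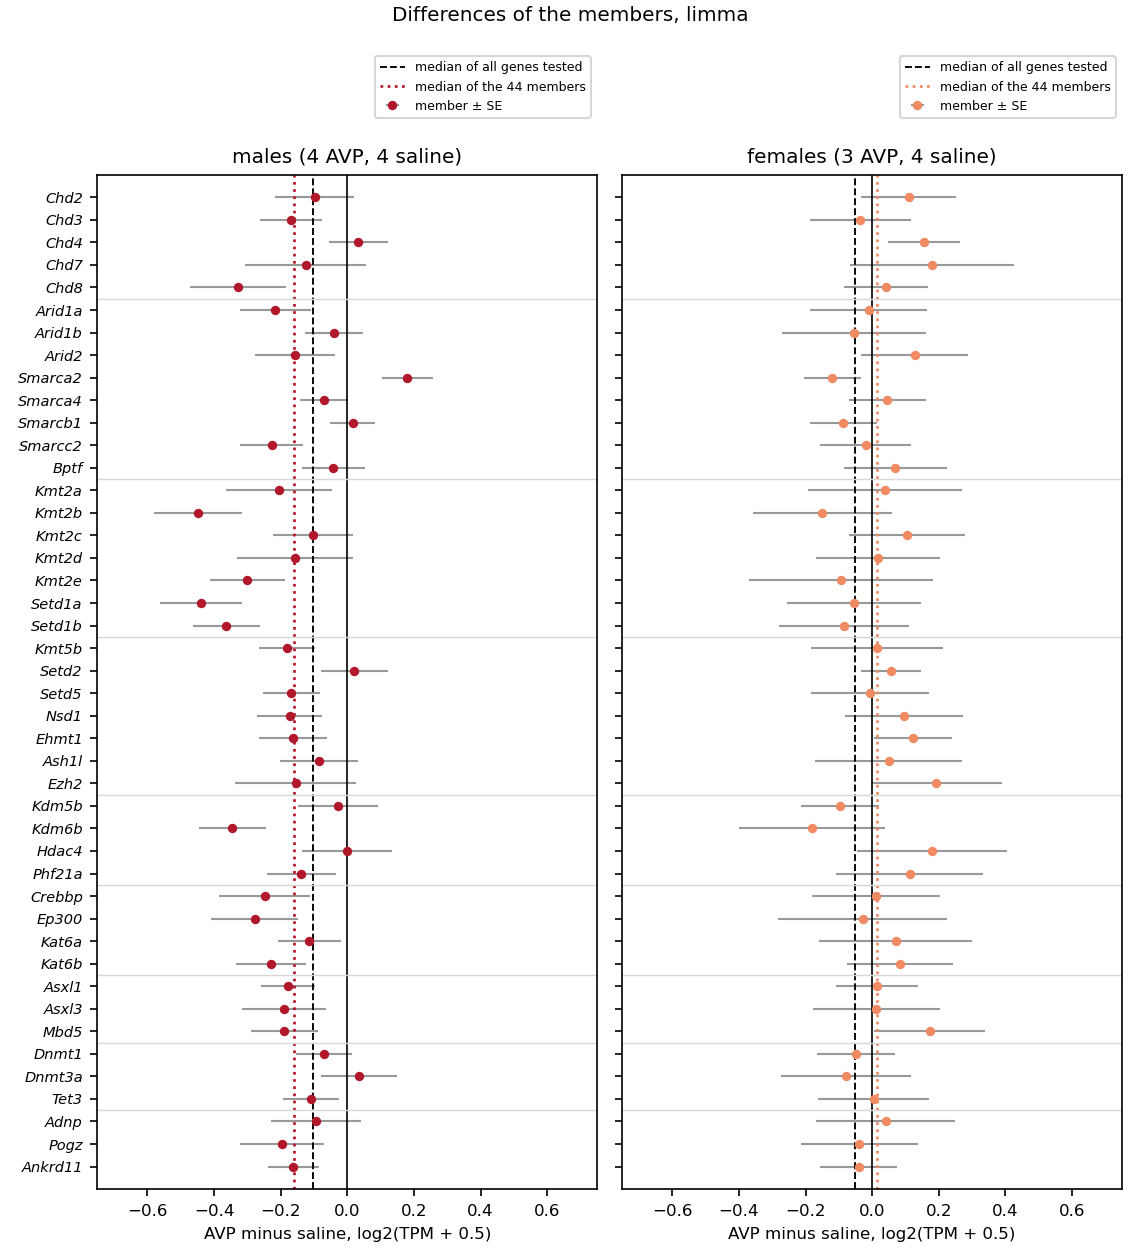
AVP minus saline difference of each member (points) with its SE (bars) on the log2(TPM + 0.5) scale, in males and in females, in the order of the roles. The dashed line is the median of all genes tested and the dotted line that of the members, which lies at -0.16 in males and at 0.014 in females.

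Whether the effect differed by sex was tested as a treatment by sex interaction in a fit of all 15 libraries, with saline male 12 under its label. When that library was left out, the members' median interaction was 0.17 with 38 higher, against 0.048 for all genes and 0.074 for like genes. No member passed the threshold over 15078 genes, of which 0% passed, and the smallest adjusted p was 0.896. The interaction, female minus male effect, was higher than 0 for 39 members and lower for 5. Its median was 0.19 against 0.068 for all genes and 0.087 for like genes. It was below 0 for 11.4% of members, 28.7% of like genes and 38.8% of all genes. An unadjusted p under 0.05 was reached by Smarca2 alone, which was lower at -0.30 (SE 0.11, adjusted p = 0.896, limma), against 1.62% of all genes lower and 2.52% higher. Taken from its long coding transcripts, Smarca2 had an interaction of 0.055. Mbd5 (0.36, SE 0.19), Ehmt1 (0.28, SE 0.15), Chd8 (0.37, SE 0.20), Kat6b (0.31, SE 0.19), Setd1a (0.38, SE 0.24), Arid2 (0.29, SE 0.20) and Asxl1 (0.19, SE 0.14) followed, with unadjusted p above 0.05 (limma). Without AVP female 11, 17 members were higher at an unadjusted p under 0.05, as were 6.87% of all genes and 18.3% of the like genes, and without AVP female 10 the median was 0.027 with 27 higher.

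Over both sexes together, with sex as a covariate, 0 of 44 members passed the threshold, as did 0% of all genes. Of the members 37 were lower and 7 higher, with a median of -0.059 against -0.078 for all genes and -0.11 for like genes. Lower with AVP were 84.1% of members, 90.5% of like genes and 73.9% of all genes. An unadjusted p under 0.05 was reached by 3 members, all lower, against 9.69% of all genes lower and 0.683% higher. They were Kmt2b (-0.31, SE 0.13), Kdm6b (-0.27, SE 0.12) and Setd1b (-0.23, SE 0.11), with an adjusted p of 0.469 for Kmt2b (limma). Setd1a stood at -0.26 (SE 0.12). The next were Ankrd11 at -0.11, Smarcc2 at -0.13, Chd8 at -0.16 and Kmt2e at -0.20, all with unadjusted p above 0.05. The 3 were 10 without AVP female 10 and 0 without AVP male 1, AVP male 2, saline male 4, AVP female 11, saline male 12 or saline female 15, and 1 without AVP male 8 or saline male 13. Of all genes 22.9%, and of the like genes 45.1%, were lower at that p without AVP female 10, and 5.51% to 8.55% of all genes in the settings with 0 members. With median-of-ratios scaling 24 members were higher and 20 lower.

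Female and male libraries, with treatment as a covariate, did not differ in any member past the threshold (smallest adjusted p = 1, limma, with 0% of all genes past it), and 0 members had an unadjusted p under 0.05. Of the members 34 were lower and 10 higher in females, with a median of -0.040 against -0.0054 for all genes and -0.037 for like genes. Lower in females were 77.3% of members, 73.7% of like genes and 52.7% of all genes. Smarca2 had the smallest p, at -0.13 (SE 0.065). Without the library labelled saline male 12 the median was -0.020, with 29 lower, and 2 genes that were higher and 5 that were lower in females passed the threshold, none of them a member (limma). Without AVP female 11 the median was 0.014, with 28 higher.

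Of 432 annotated transcripts of the members, 209 were tested in males and 189 in females, and 0 passed the threshold in either sex (limma), as did 0.00762% of all transcripts in males and 0% of 37806 in females. In males 23 member transcripts were lower and 3 higher at an unadjusted p under 0.05, against 10.7% of all transcripts lower and 1.39% higher. In females 5 were higher and 1 lower, against 1.2% and 1.85%. The smallest p in males belonged to Phf21a-213, a protein-coding transcript of 565 nt that holds 2.83% of the gene. It was listed at 0, 0, 0 and 0.0351 TPM in AVP males and at 3.88, 1.68, 1.06 and 4.001 TPM in saline males (adjusted p = 0.197, limma). It was also listed at 0 in 1 AVP female and 2 saline females, so zeros occurred without AVP. Chd3-204, a protein-coding transcript of 5657 nt, measured 13.1, 18.8, 18.9 and 18.7 TPM in AVP males and 26.0, 23.8, 32.9 and 30.0 TPM in saline males. It was lower without overlap (difference -0.69, SE 0.15, adjusted p = 0.356, limma), while Chd3-202, which led the gene with 49.2% of its TPM, differed by 0.020. Smarcc2-203 and the decay-class transcript Kmt2e-204 were lower by -0.52 and -1.06 (adjusted p = 0.364 for each, limma), and the leading Smarcc2-202 and Kmt2e-201 by -0.21 and -0.33. In females the transcripts with the smallest p after Smarca2-203 were minor ones of Phf21a, at 1.04 and 1.22, of Kdm5b, at -2.15, and of Setd2, at 1.90, with an adjusted p of 1 for each (limma).

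The members differed in how much of their TPM lay on coding transcripts. A protein-coding transcript led in 42 of the 44, and in 25 the leading transcript held at least 50% of the gene. In Ezh2 the leading transcript was Ezh2-213, a retained-intron transcript of 500 nt with 41.6% of the TPM, and only 39.1% lay on coding transcripts. In Chd2 a transcript of the nonsense-mediated decay class, Chd2-212, led with 41.5%. Retained-intron transcripts also held 45.6% of Ep300, 30.7% of Chd3, 28.0% of Kmt2b and 22.0% of Chd8. With protein-coding transcripts alone the members' median in males was -0.14 against -0.068 for all genes, with 39 lower. With long coding transcripts alone it was -0.12, with 40 lower, and Kmt2b and Chd8 differed by -0.27 and -0.097.

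Other chromatin genes, among them partners of the members in the same complexes, were also mostly lower in males. Of 101 other chromatin genes in 7 lists, all were tested and 0 passed the threshold in any comparison (limma). In males 92 were lower and 9 higher, with a median of -0.15. At an unadjusted p under 0.05, 18 were lower and 0 higher, against 12.4% of all genes lower. Of the like genes 24.0% were lower at that p, but they were matched to the members and not to these lists. In females 45 were higher and 56 lower, with a median of -0.015, and 1 was lower at an unadjusted p under 0.05. Among 21 other BAF subunits 19 were lower in males, led by Dpf2 (-0.55) and Smarcd2 (-0.39), and in females Dpf1 (-0.23) and Actl6b (-0.22) had the smallest p. Among 15 other NuRD and CHD genes 11 were lower in males, led by Mbd2 (-0.29) and Gatad2b (-0.21), and in females Chd5 (-0.37) and Chd9 (0.20) led. Of 12 COMPASS partners 10 were lower in males, with Cxxc1, which brings Setd1 complexes to CG-rich DNA, at -0.23 and Men1 at -0.20. In females Wdr5 (-0.16) and Cxxc1 (-0.13) led. Of 12 Polycomb genes 11 were lower in males, led by Ezh1 (-0.40) and Asxl2 (-0.33), and 9 were higher in females, led by Phf19 (0.50) and Suz12 (0.19). All 7 other genes of DNA methylation were lower in males, with Mbd1 at -0.24 and Tet2 at -0.30, and in females Uhrf1 (0.25) and Tet1 (0.16) led. All 20 other histone methyltransferases and demethylases were lower in males, led by the H3K79 methyltransferase Dot1l (-0.57) and Kmt5a (-0.27), and in females Ehmt2 (-0.18) and Kdm5a (0.28) led. All 14 other acetyltransferases and deacetylases were lower in males, with Hdac7 at -0.50 and Kat2a at -0.22, and 12 were lower in females, where Ing5 (0.22) and Kat5 (-0.11) had the smallest p. As with the members, these signs are read against the 73.6% of all genes that were lower in males.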

How the data were processed

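mRNA-seq of E18 dorsal forebrain covered 15 libraries in 4 groups by treatment and sex. The authors trimmed adapters (Trim Galore 0.4.1), checked reads (FastQC 0.5.2) and quantified GENCODE M16 transcripts (GRCm38) with bias correction (kallisto 0.43.1), and the deposited transcript values sum to the same total in every library, so they were read as TPM. TPM keep no counts, so depth is unknown and no counting interval is given, and the authors' sleuth 0.29.0 test was not repeated. Transcripts were summed to 53337 genes by the reference annotation, and 404 transcripts with no gene in it (0.154% to 0.199% of TPM) were left out.

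limma 3.58.1 (R 4.3.3) was run two-sided on log2(TPM + 0.5), with a trend of variance on mean, for genes or transcripts that reached 1 TPM in 50% or more of the libraries compared, with Benjamini-Hochberg adjustment over all of them and a threshold of 0.05. The sexes were fitted separately, as in the study, and together for the interaction, the effect over both sexes and the sex difference. Single members had exact two-sided permutation tests (scipy 1.17.1), with a smallest possible p of 0.0286 in males and 0.0571 in females. These p were not adjusted over the members. The tests were tested on simulated data. Like genes were those between the members' 10th and 90th percentiles of TPM-weighted length, GC content and mean level, given as a description. Members named with full statistics were, per comparison, the 8 with the smallest p, with the 3 highest and 3 lowest in level and Smarca2. Transcripts named were the 5 with the smallest p per sex and their genes' leading transcripts, and other chromatin genes the 2 with the smallest p per list and sex. Setd5, Ankrd11, Dnmt3a and members given by difference alone complete the roles. The members and all lists were chosen with earlier results of these data known. Alternatives were other pseudocounts (0.1 and 1), filters (none, or 5 TPM in every library), scalings, no trend, the run of library numbers as a covariate, subtraction of the length and GC trend within each library, coding transcripts alone, 1 fit of all libraries, and each library left out. The subtraction of the trend also centres each library. Median-of-ratios scaling together with that subtraction, long coding transcripts alone, and leaving out AVP male 1, AVP female 10 and AVP female 11 together were chosen after seeing the data. Figures were drawn with matplotlib 3.10.9.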

Additional observations from a re-analysis of the deposited data

Results flagged for a closer look

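In groups of 4 libraries, a single library far from the other 3, by Dixon's 95% critical value, was found for 4 members and for Xist. Of 138 groups looked at, 5 (3.62%) were so marked, and chance marks about 1 in 20. Kmt2c was at 16.9 TPM in AVP male 1, against 23.2 to 24.3 TPM in the other AVP males, and this library was low over 42 of the 44 members. Crebbp and Pogz were highest in saline female 15, at 12.3 TPM against 9.38 to 9.85 TPM and at 50.6 TPM against 33.7 to 35.9 TPM. Mbd5 was at 21.4 TPM in saline female 14, against 18.5 to 18.97 TPM in the other saline females. Xist was at 265.7 TPM in the library labelled saline male 12, against 0.457 to 1.13 TPM in the other saline males.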

How the results depend on the processing

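No member passed the threshold in any comparison under any alternative run (limma). The smallest adjusted p of a member was 0.128 in males (without AVP male 9, of 22 alternatives), 0.472 in females (without AVP female 10, of 21), 0.61 for the interaction (without AVP female 11, of 28), 0.0586 over both sexes (without AVP female 10, of 28) and 0.923 for the sex difference (without AVP female 10, of 28). No member transcript passed in either sex under the alternatives run for transcripts. Depth is unknown for TPM, and the median SE of a member's difference, 0.10 in males and 0.18 in females, limits what could be called. No paired analysis was possible because the groups share no replicate numbers and the labels do not link littermates.

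The members' median minus that of all genes shifted from its value with all libraries by less than the SD of that measure between libraries (0.0878), except in females without AVP female 11, where it went from 0.065 to 0.16 (range -0.0068 to 0.16 over the libraries left out in turn). Of the members given with full statistics, none of which was past the threshold, these took the opposite sign, on the log2(TPM + 0.5) scale, and the cause was not tested. With long protein-coding transcripts only, Smarca2 was -0.074 in males, Ehmt1 was -0.0097, Kdm5b 0.070 and Crebbp -0.012 in females, Smarca2 was 0.055 for the interaction, Smarca2 was -0.048 and Hdac4 -0.041 over both sexes, Chd3 was -0.11 and Crebbp -0.0084 for the sex difference. With the length and GC trend removed, Chd3 was 0.018 and Hdac4 0.17 in males, Chd3 was 0.055, Smarcc2 0.050 and Asxl3 -0.0053 in females, Smarcc2 was 0.00013 and Chd3 0.036 over both sexes. With median-of-ratios scaling and that removal together, Chd3 was 0.024 and Hdac4 0.18 in males, Chd3 was 0.058, Smarcc2 0.053 and Asxl3 -0.0036 in females, Smarcc2 was 0.0048 and Chd3 0.041 over both sexes. With quantile normalization, Hdac4 was 0.15 in males, Chd3 was 0.022 and Smarcc2 0.032 in females, Chd3 was -0.0042 for the sex difference. With median-of-ratios scaling, Hdac4 was 0.11 in males, Smarcc2 was 0.0096 in females. Without AVP male 1, AVP female 10 and AVP female 11 together, Hdac4 was 0.083 in males, Ezh2 was -0.29 and Smarcb1 0.051 in females, Arid2 was -0.0067 and Chd3 -0.031 for the interaction, Chd3 was -0.067 and Crebbp -0.0090 for the sex difference. With protein-coding transcripts only, Kdm5b was 0.069 and Chd3 0.0065 in females, Chd3 was -0.11, Hdac4 0.0056 and Crebbp -0.016 for the sex difference. With the run of library numbers as a covariate, Crebbp was -0.0046 and Asxl3 -0.017 in females, Chd3 was -0.0051 for the sex difference. With 1 library left out in turn, these members had ranges that cross 0. In males, Hdac4 ranged from -0.10 to 0.083. In females, Mbd5 ranged from -0.011 to 0.33, Kdm6b from -0.43 to 0.079, Chd3 from -0.21 to 0.090, Smarcc2 from -0.18 to 0.099, Hdac4 from -0.070 to 0.44, Crebbp from -0.16 to 0.19 and Asxl3 from -0.12 to 0.16. For the interaction, Chd3 ranged from -0.040 to 0.26 and Hdac4 from -0.069 to 0.44. Over both sexes, Smarca2 ranged from -0.0030 to 0.070 and Hdac4 from -0.029 to 0.17. For the sex difference, Arid1b ranged from -0.16 to 0.020, Ep300 from -0.22 to 0.00032, Chd3 from -0.074 to 0.046, Hdac4 from -0.15 to 0.051 and Crebbp from -0.022 to 0.12.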
